A study of Mus musculus with 2 samples.

Results

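C-type natriuretic peptide and the natriuretic peptide receptors are described here across the cells of the embryonic mouse coronal suture. The 4 genes are Nppc, which encodes the peptide, and Npr1, Npr2 and Npr3, which encode the receptors NPR-A, NPR-B and NPR-C. They were found by symbol among the 31053 genes of the E15.5 gene list and the 27998 genes of the E17.5 gene list. They were selected on their UMI levels per cluster and library, with those of Nppc in these data already known, so the levels are given as a description and not as a test.

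C-type natriuretic peptide is a secreted peptide that binds NPR-B, a membrane guanylyl cyclase that makes cyclic GMP. NPR-A is the corresponding cyclase for the atrial and B-type peptides, and NPR-C has no cyclase domain and removes all these peptides from the extracellular space. In the skeleton the peptide is best known from the growth plate, where signalling through NPR-B promotes the lengthening of cartilage, and mice that lack Nppc or Npr2 have short bones, whereas mice that lack Npr3 have long ones.

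The cells came from coronal sutures of wild-type C57/BL6 mouse embryos at E15.5 and E17.5, and their transcripts were tagged in 10x Genomics Chromium droplets with the 3′ v2 chemistry, which counts unique molecular identifiers (UMIs). The E15.5 library held 10 pooled sutures that were dissociated with collagenase II and dispase and cleared of dead cells with a kit. The E17.5 matrix joined 3 batches of 10, 3 and 3 sutures from 2 litters, which were dissociated with collagenase IV, sorted by flow cytometry and made into libraries separately. The joined data are called the E17.5 library here. Skin, brain and part of the meninges had been peeled off at both stages, and because the stages also differed in enzyme, sorting, embryos and gene list, a difference between the libraries cannot be told apart from these steps.

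The authors' labels placed 5335 cells of the E15.5 matrix (5 of 5340 labels had no barcode there) and 6830 cells of the E17.5 matrix in 15 clusters, namely osteogenic (OG1 to OG4), proliferating osteogenic (PO1, PO2), ectocranial (EC1 to EC4), ligament-like (LIG) and meningeal (MG1 to MG4) cells. Median depth was 8510 and 12301 UMIs per labelled cell. Of 11 markers used to check the labels, 10 were highest in the clusters they name at E15.5, and 9 were so in the E17.5 library. The exceptions were Erg, highest in MG2 at E15.5, Lef1, highest in PO2 at E17.5, and Crabp2, which ranked 3 in MG4 at E17.5. The libraries shared 94 barcode sequences among 8210 and 8767 barcodes kept. All 5335 labelled E15.5 cells had fewer UMIs in the matrix than in the authors' table, where their median was 11513. Unlabelled barcodes with 10 or more UMIs of the cartilage gene Matn1, 1195 at E15.5 and 181 at E17.5, are called Matn1-high cells below. This class is a range of Matn1 and not a type, and 79 and 27 cells lay just outside it with 5 to 9 UMIs, against 127 and 58 just inside with 10 to 19.

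In the GRCm38 build, Nppc lies on the minus strand of chromosome 1 from 86666291 to 86670571, and its coding transcript has 3 exons. Npr1 lies on the minus strand of chromosome 3 from 90450591 to 90465866, Npr2 on the plus strand of chromosome 4 from 43631935 to 43651244 and Npr3 on the minus strand of chromosome 15 from 11839896 to 11907287. Npr1 and Npr2 overlap the antisense genes Gm16048 and Gm12473. Cell Ranger, which the study ran with default settings, counts reads of the sense strand only. The hormones of this family share a ring that a pair of cysteines closes. The ring-coding stretches of Nppc and Nppb from the GENCODE vM21 transcripts are shown because Nppc and Nppb, the gene of the B-type peptide, were highest in different clusters. Each is 17 codons or 51 bases within 1 exon, 5′ to 3′ on the coding strand, with the cysteine codons in capitals. Nppc is at chr1:86669667-86669717 and Nppb at chr4:147986464-147986514.
Nppc: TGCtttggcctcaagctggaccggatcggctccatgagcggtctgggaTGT
Nppb: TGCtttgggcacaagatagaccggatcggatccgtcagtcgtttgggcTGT
Over this stretch 40 of 51 bases were the same in Nppb and Nppc. The ring ends the reading frame of Nppc at codon 126, whereas 6 codons follow it in Nppb.

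Nppc was a meningeal gene in both libraries, with its highest levels in MG2 and MG3. A level is the gene's share of all UMIs in the pooled cells of a cluster, expressed in CPM, and brackets give exact 95% intervals, which cover counting error only, because each stage is 1 sample. No test between clusters was run, since Nppc was chosen for its cluster levels and the clusters were made from the same cells. At E15.5 the level was 299 CPM in MG2 (280 to 320, 888 UMIs in 350 cells) and 230 CPM in MG3 (210 to 253, 453 UMIs in 200 cells). At E17.5 it was 193 CPM in MG2 (181 to 206, 933 UMIs in 473 cells) and 288 CPM in MG3 (265 to 312, 587 UMIs in 165 cells). These clusters together held 82.2% of the labelled Nppc UMIs in 10.3% of the labelled cells at E15.5, and 82.1% in 9.34% of the cells at E17.5. MG4 was lower, at 97.8 CPM at E15.5 and 84.8 CPM at E17.5. MG1 stood at 103 CPM at E15.5 but at 6.18 CPM at E17.5. The 11 clusters outside the meninges ranged from 0 to 10.8 CPM in the E15.5 library and from 0 to 4.75 CPM in the later one. In macrophages, set here as a reference although they may make some of the peptide themselves, Nppc stood at 7.5 and 2.06 CPM in the E15.5 and E17.5 libraries, and the levels outside the meninges were of this order. The E15.5 value came from 27 UMIs in 10 of 335 macrophages, with up to 7 in a cell. That of E17.5 came from 14 UMIs in 14 of 588. The part of free RNA in any of these levels was not tested. In unlabelled cells classed as osteoclasts Nppc was lower, with no UMI at E15.5, where a count of 0 allows up to 1.17 CPM, and 1.21 CPM from 2 UMIs at E17.5. The highest cluster outside the meninges at E15.5, OG3 at 10.8 CPM (5.92 to 18.2), lay above that limit.

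**Figure D1:**
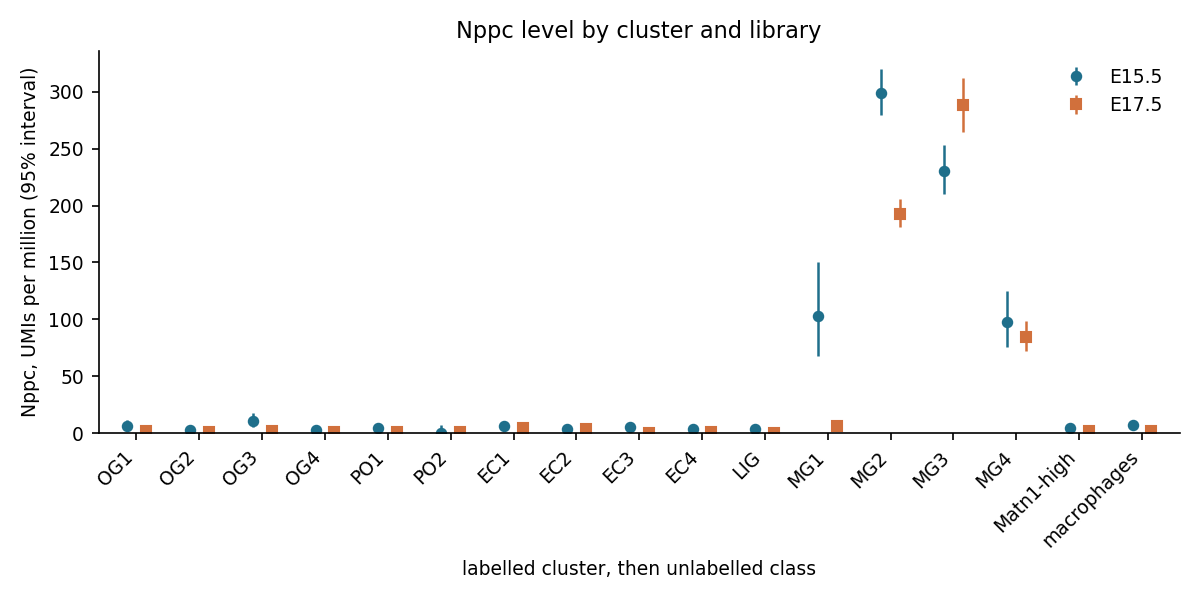
Level of Nppc in CPM (vertical axis) in each of the 15 labelled clusters and in unlabelled Matn1-high cells and macrophages, with circles for the E15.5 library, squares for the E17.5 library and bars for exact Poisson 95% intervals. MG2 and MG3 stand between 193 and 299 in both libraries, MG4 at 97.8 and 84.8, and MG1 at 103 in the E15.5 library but 6.18 in the E17.5 library.

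Set against all remaining labelled cells of its library, Nppc in MG2 was 18.4-fold higher at E15.5 (16.6 to 20.3) and also 18.4-fold higher at E17.5 (16.8 to 20.2). In MG3 the ratio was 9.12 in the E15.5 library (8.16 to 10.2) and 20.6 in the E17.5 library (18.6 to 22.7), and in MG4 it was 2.99 and 4.55. Among 12150 genes with at least 50 UMIs in the labelled cells of each library, Nppc ranked 5 and 1 in the E15.5 and E17.5 libraries by its ratio in MG2. The clusters were made by the authors from the same cells, so these ranks describe the cluster and test nothing.

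The order of MG2 and MG3 differed between the libraries. MG2 was 1.3-fold above MG3 at E15.5 (1.16 to 1.46), whereas the MG2 to MG3 ratio at E17.5 was 0.67 (0.604 to 0.744). The E17.5 barcodes carry 3 suffixes, which the labels do not tie to the batches, and Nppc in MG2 was 292, 161 and 148 CPM in suffixes 1, 2 and 3. In MG3 it was 332, 282 and 264 CPM. MG3 was thus above MG2 in each suffix, while the intervals of suffix 1, 264 to 322 and 287 to 383, overlap. The E17.5 to E15.5 ratio in MG2, 0.644 over the whole library (0.587 to 0.707), was 0.977 in suffix 1 and 0.537 and 0.494 in suffixes 2 and 3. In MG3 the corresponding ratio was 1.25 (1.1 to 1.41), and in MG4 it was 0.867 (0.646 to 1.17).

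Per cell, Nppc was detected in 74.3% of MG2 cells (69.4 to 78.8) and 78.5% of MG3 cells (72.2 to 84) at E15.5, and in 54.8% (50.1 to 59.3) and 81.8% (75.1 to 87.4) at E17.5. The share was 45.3% and 35.1% in MG4, and 2.99% and 2.38% in macrophages, whose median depth was 9654 and 9858 UMIs. Because shares move with depth, each cell was also thinned at random to 3000 UMIs, which left out 9 of 350 MG2 cells and 1 of 200 MG3 cells at E15.5 and none of either at E17.5. The thinned shares were 54.3% in MG2 and 47.7% in MG3 of the E15.5 library, and 31.7% and 53.3% in the E17.5 library, against 2.16% and 0.68% in macrophages. The share in MG2 was thus lower in the E17.5 library also at equal depth. The levels were also uneven among the cells of a cluster. Of the E17.5 MG2 cells, 214 of 473 had no Nppc UMI and 68 had 5 or more, with a highest count of 21. In MG3 the corresponding numbers were 30 and 58 of 165 cells, with a highest count of 14. At E15.5, 63 of 350 MG2 cells and 27 of 200 MG3 cells had 5 or more. Cells with 5 or more Nppc UMIs were rare elsewhere among labelled cells, where 5 of the 95 such cells at E15.5 and 8 of the 134 in the later library were outside MG2 and MG3.

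**Figure D2:**
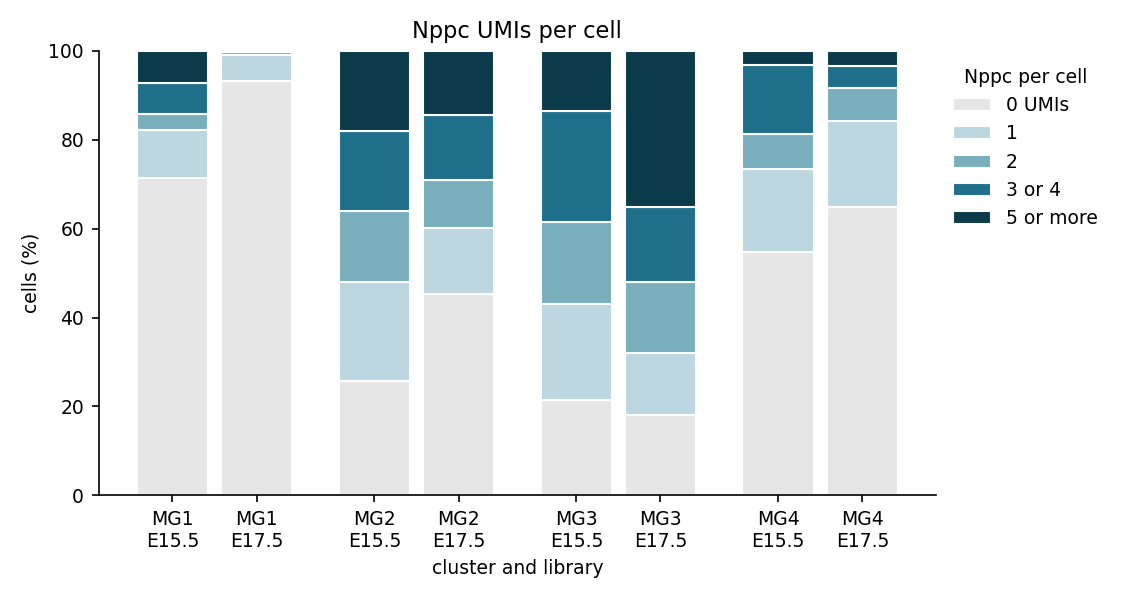
Percent of cells (vertical axis) of MG1 to MG4 in each library by their number of Nppc UMIs, from 0 in grey to 5 or more in dark blue. Among E17.5 cells, 58 of 165 in MG3 and 68 of 473 in MG2 hold 5 or more UMIs, whereas no MG1 cell does.

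The largest difference of Nppc between the libraries that was seen in a meningeal cluster was in MG1, which was 16.7-fold lower at E17.5 (9.69 to 28.5). In this cluster 7.64% of 7982 genes were at least 2-fold lower at E17.5, and since the clusters and libraries were part of how the genes were chosen, nothing is read from this share. The E15.5 value rested on 27 UMIs in only 28 cells, of which 4 cells held 22 UMIs. At E17.5 the 34 UMIs were spread over 29 of 423 cells, with a highest count of 3. No E17.5 MG1 cell carried suffix 1, and suffixes 2 and 3 stood at 7.78 and 4.9 CPM. MG2 was accordingly 2.9-fold above MG1 at E15.5 (1.98 to 4.43), and the ratio in the E17.5 library was 31.2 (22.2 to 45.3). In EC3 Nppc was 5.87 CPM at E15.5 (63 UMIs), and no UMI was found in the E17.5 library, which is at least 3.86-fold lower against the limit of 1.52 CPM that a count of 0 allows (3 counts over the cluster). Both values lay below the level in macrophages.

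Nppc was low in the cartilage cells chosen by Matn1. Matn1-high cells held 4.56 CPM in the E15.5 library (3.54 to 5.79) and 1.82 CPM in the E17.5 library (0.496 to 4.67), below the macrophage level of the same library. MG2 was 65.6-fold above them in the E15.5 library (51.1 to 85.4) and 106-fold in the E17.5 library (41.2 to 389). Unlabelled E15.5 cells with other cartilage markers but fewer than 10 Matn1 UMIs stood at 53.3 CPM, from 109 UMIs in 13 of 261 cells, whereas the same class at E17.5 stood at 4.27 CPM, from 6 UMIs in 126 cells. Among all unlabelled E15.5 barcodes, 16 held 5 or more Nppc UMIs. Their median depth was 27089 UMIs against 9773 in unlabelled cells as a whole, and 7 of the 16 were among the highest doublet scores. The part of doublets in these counts was not tested.

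The other ligand genes Nppb and Ostn were highest outside the meninges. Nppb, named here after its values were seen, had 77 UMIs in the labelled cells of the E15.5 library and 20 in those of the E17.5 library. Its highest level was in EC2, at 5.21 CPM (48 UMIs) and 2.14 CPM (17 UMIs), where 41 of 925 and 17 of 608 cells held a UMI. Nppc stood at 3.58 and 3.4 CPM in this cluster, and no Nppb UMI was found in MG1 to MG4 of either library. Nppa, the gene of the atrial peptide, had 1 UMI in each library. Ostn encodes osteocrin, a bone-derived ligand of NPR-C that lengthens the life of the other peptides. It stood at 7.8 and 4.85 CPM in OG1 of the E15.5 and E17.5 libraries and at 5.26 and 5.54 CPM in LIG, 2.56-fold or more above the remaining labelled cells in each of these, and no Ostn UMI was found in MG3 or MG4. In MG2 it was 1.68 CPM (5 UMIs) and 0.826 CPM (4 UMIs), and in MG1 7 UMIs at E17.5 gave 1.27 CPM.

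Npr2, the receptor of the Nppc peptide, was broadly distributed. Its level ran from 2.07 CPM in PO2 to 15.8 CPM in MG2 at E15.5, and from 6 CPM in OG4 to 22.5 CPM in MG3 at E17.5. MG2 stood at 15.8 and 22.1 CPM in the libraries, and MG3 at 14.8 and 22.5 CPM. The clusters with the most Nppc were thus among those with the most Npr2, but the margin was small. MG1 stood beside them at 15.3 CPM, from 4 UMIs, and 15.6 CPM. Outside the meninges, EC4 held 12.7 and 16.9 CPM and LIG 12.8 and 14.1 CPM. In MG2 Npr2 was above the remaining labelled cells by 1.62-fold at E15.5 (1.17 to 2.19) and by 1.96-fold at E17.5 (1.59 to 2.39). In MG3 the ratio was 1.48 (0.98 to 2.15) and 1.94 (1.41 to 2.6). At E15.5, 10 of the 15 clusters had intervals that overlapped that of the highest or were that cluster, and at E17.5 it was 8. No neighbouring pair in the order of levels was separated in either library.

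Levels of Npr2 below that of MG2 were found in several osteogenic clusters. OG2 held 8.04 and 7.69 CPM, and the ratio of MG2 to it was 1.97 at E15.5 (1.23 to 3.17) but 2.87 at E17.5 (2.08 to 4). In OG4, the mature osteoblasts, Npr2 was 11.1 CPM at E15.5 and 6 CPM at E17.5, 1.84-fold lower (1.05 to 3.09). In PO1 it moved the other way, from 3.43 CPM (7 UMIs) to 9.77 CPM (71 UMIs). Matn1-high cells held 12.5 and 13.7 CPM, near the middle of the labelled clusters. In macrophages Npr2 was 1.11 and 2.79 CPM, with a UMI in 1.19% and 3.06% of cells, against 12.6% and 19.5% of MG2 cells. After thinning to 3000 UMIs the MG2 shares were 4.69% and 6.98%, and those of macrophages 0.617% and 1.19%.

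Npr2 UMIs occurred in MG2 cells with and without Nppc. In thinned MG2 cells of the E15.5 library, Npr2 was detected in 6.49% of 185 cells with an Nppc UMI (3.4 to 11.1) and in 2.56% of 156 cells without one (0.703 to 6.43). At E17.5 the shares were 7.33% of 150 cells (3.72 to 12.7) and 6.81% of 323 cells (4.32 to 10.1). In MG3 they were 9.47% and 4.81% in the E15.5 library, and 6.82% and 6.49% in the E17.5 library. The intervals overlapped in all 4 pairs, so no difference was detectable at this depth.

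Npr1, the receptor of the atrial and B-type peptides, was highest in the ectocranial cluster EC2 among the labelled clusters of both libraries. In EC2, the Pi16-marked layer, it stood at 12.7 CPM in the E15.5 library (10.5 to 15.2, 117 UMIs) and 17.6 CPM in the E17.5 library (14.8 to 20.8, 140 UMIs). EC1 held 12.4 and 6.72 CPM, EC3 8.3 and 16.8 CPM, and EC4 5.86 and 3.56 CPM. At E17.5 the intervals of EC1 and EC4 overlapped those of the meningeal clusters MG2, at 5.37 CPM, and MG1, at 4.72 CPM. EC2 did not stand apart from EC1 at E15.5, with a ratio of 1.03 (0.708 to 1.52), nor from EC3 at E17.5, with a ratio of 1.05 (0.715 to 1.59). The 3 suffixes of the E17.5 library gave 21.8, 14.5 and 17.2 CPM in EC2. An Npr1 UMI was found in 11.6% and 19.7% of EC2 cells, and in 0% (0 to 1.92) and 1.14% of OG4 cells, whose median depth was 7351 and 19349 UMIs against 9732 and 12602 in EC2. After thinning the EC2 shares were 3.2% and 6.09%, and those of OG4 were 0% and 0.19%.

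Against all remaining labelled cells the ratio of Npr1 in EC2 was 2.5 in the E15.5 library (1.97 to 3.16) and 5.8 in the E17.5 library (4.69 to 7.15). With each cell thinned to 3000 UMIs the E15.5 ratio was 1.85, below 2-fold. The meningeal clusters that held the ligand gene had little Npr1, at 3.37 and 5.37 CPM in MG2 and 1.02 and 3.43 CPM in MG3. In OG3 and OG4 no Npr1 UMI was found at E15.5, and at E17.5 they held 2.79 and 0.572 CPM.

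Outside the labels, Npr1 was concentrated in endothelial cells, with 123 CPM in 29 E15.5 cells and 111 CPM in 120 E17.5 cells, where 55.2% and 63.3% of cells held a UMI. Macrophages held 7.5 and 16.6 CPM. The summed level of the endothelial markers Pecam1, Cdh5, Kdr, Cldn5 and Emcn was 16.5 and 8.3 CPM in EC2, 61.5 and 87.7 CPM in MG3 and 88.8 and 74.2 CPM in MG4. The part of endothelial RNA in the Npr1 level of EC2 or any other cluster was not tested.

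Over all labelled cells, Npr3 differed most between the libraries among the 4 genes. It was 15.6 CPM in the E15.5 library and 3.95 CPM in the E17.5 library, 3.94-fold lower (3.47 to 4.48). The make-up of the labelled cells differed too, with 1185 EC3 and 261 OG1 cells at E15.5 against 194 and 1010 at E17.5. The part of cluster make-up in the pooled ratio was not tested. At E15.5 the ectocranial clusters led, with 38.6 CPM in EC4 (32.8 to 45.1, 158 UMIs) and 24.3 CPM in EC3 (21.5 to 27.5, 261 UMIs). MG1 was next at 19.1 CPM, from 5 UMIs, and EC2, EC1, PO1 and OG2 followed between 12.9 and 15.7 CPM. At E17.5 the meningeal clusters MG1, at 26.7 CPM (22.6 to 31.4, 147 UMIs), and MG4, at 25.3 CPM (18.6 to 33.5, 48 UMIs), led instead. EC2 followed at 10.7 CPM and EC3 at 9.14 CPM, and the 6 osteogenic clusters lay between 0 and 0.502 CPM, below the macrophage level of 0.587 CPM.

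**Figure D3:**
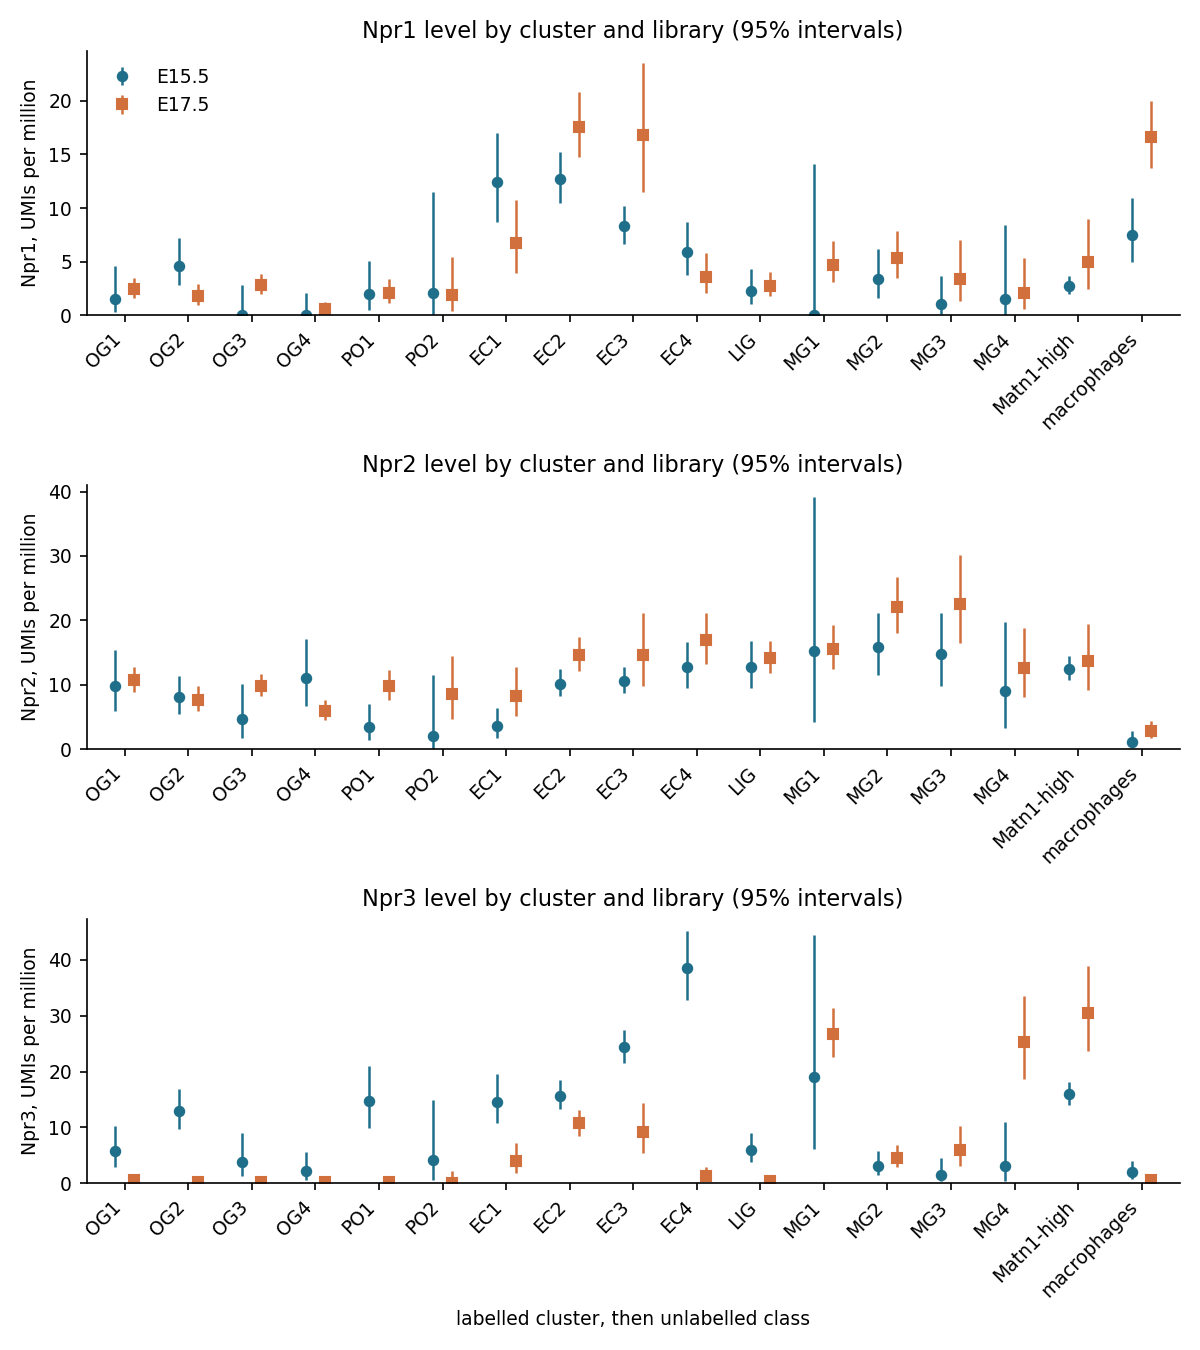
Levels of Npr1, Npr2 and Npr3 in CPM (vertical axes, a scale for each gene) in the labelled clusters, Matn1-high cells and macrophages, with circles for the E15.5 library, squares for the E17.5 library and bars for exact Poisson 95% intervals. Among labelled clusters Npr1 is highest in EC2, at 12.7 and 17.6, beside 7.5 and 16.6 in macrophages, Npr2 lies between 2.07 and 22.5, and Npr3 stands at 38.6 in EC4 at E15.5 but at 26.7 in MG1 and 25.3 in MG4 at E17.5.

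In EC4, marked by C1qtnf3, Npr3 was 28.9-fold lower at E17.5 (13 to 79.9), with 6 UMIs left in 370 cells. Of 9202 genes in this cluster, 6.73% were at least 2-fold lower at E17.5, a share from which nothing is read because the rule used the same values. The suffixes gave 0, 0.552 and 3.48 CPM, all far below the E15.5 level. Within the ectocranial clusters the order was turned, since EC4 was 1.59-fold above EC3 at E15.5 (1.29 to 1.94) and the EC4 to EC3 ratio was 0.146 at E17.5 (0.0475 to 0.384). EC3 itself was 2.66-fold lower at E17.5 (1.65 to 4.56), and EC2 1.47-fold lower (1.12 to 1.95). The osteogenic clusters also differed, with OG2 51.2-fold lower (13.5 to 434, 53 against 2 UMIs) and PO1 107-fold lower (17.8 to 4358, 30 against 1 UMI). LIG was 18.5-fold lower (5.61 to 95.8).

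The E15.5 Npr3 of EC4 lay in few cells. A UMI was detected in 70 of 469 cells (14.9%, 11.8 to 18.5), against 0.896% of macrophages, and 22 cells with 3 or more UMIs held 58.9% of the cluster's Npr3. In EC3, by contrast, 7 of 1185 cells had 3 or more and held 8.81%. Other genes with enough UMIs in the 70 EC4 cells were ranked by their ratio to the 399 without Npr3. The genes below come from the top of that ranking and were named after their values were seen. They were thus higher in the 70 cells by choice, and nothing is read from that direction. Dpt, which encodes the dermal matrix protein dermatopontin, was 394 CPM in cells with Npr3 and 58.4 CPM in cells without. Hmcn1, which encodes the matrix protein hemicentin, was 317 and 36.8 CPM, and Kera, which encodes the proteoglycan keratocan, was 99.8 and 6.23 CPM. Vegfd, a lymphatic growth factor gene, was 226 and 45.1 CPM. Cells with Npr3 were also deeper, with a median of 9541 against 7796 UMIs, and the part of depth was not tested. Between the libraries these genes were lower over the whole of EC4 at E17.5, Dpt at 15.6 against 117 CPM, Hmcn1 at 14.7 against 86.2 CPM, Kera at 0.445 against 22.7 CPM and Vegfd at 38.7 against 76.9 CPM. Chodl, also higher in the Npr3 cells (83.2 against 16 CPM), was not lower at E17.5, at 50.1 against 27.8 CPM. Nor was Apoe (298 against 72.9 CPM in cells with and without Npr3), at 113 CPM in EC4 of each library. In EC2 at E17.5, Dpt stood at 825 CPM, Hmcn1 at 185 CPM and Vegfd at 164 CPM. Apoe was 126 CPM there, whereas Kera and Chodl were 9.81 and 2.52 CPM.

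Among the meningeal clusters, Npr3 separated MG1 from MG2 in both libraries. At E15.5 MG1 was 6.3-fold above MG2 (1.66 to 20.9), although from 5 UMIs in 2 of 28 cells, and at E17.5 it was 5.87-fold above it (3.74 to 9.66). At E17.5 a UMI was detected in 22.9% of MG1 cells (19 to 27.2), against 4.02% of MG2 cells and 0.68% of macrophages, and in 6.38%, 1.27% and 0.34% after thinning. MG1 and MG2 thus differed in opposite directions for the peptide gene and for the clearance receptor gene. The MG1 level was 28.2 and 25.5 CPM in suffixes 2 and 3, and its E17.5 to E15.5 ratio was 1.4 (0.586 to 4.37).

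In MG4, Npr3 was 3.01 CPM at E15.5 from 2 UMIs in 64 cells and 25.3 CPM at E17.5 from 48 UMIs in 202 cells, 8.4-fold higher (2.2 to 71.3). In this cluster 10.5% of 5663 genes were at least 2-fold higher at E17.5, which is given beside the value and not read. Suffixes 2 and 3 stood at 23.6 and 29.3 CPM, and the 7 MG4 cells of suffix 1 held no UMI. At E17.5 MG4 was 4.3-fold above MG3 (2.25 to 8.89).

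Matn1-high cells held Npr3 at 16 and 30.5 CPM in the E15.5 and E17.5 libraries, 1.91-fold higher in the later one (1.43 to 2.51), and MG1 was the labelled cluster nearest to them in the later library. They did not stand apart from MG1, with Matn1-high to MG1 ratios of 0.838 (0.354 to 2.61) for E15.5 and 1.14 (0.843 to 1.54) for E17.5. This was not particular to MG1. At E15.5 EC2, at 15.7 CPM, was nearer to them than MG1, whose 19.1 CPM rests on 5 UMIs. At E17.5 the interval of MG4 (18.6 to 33.5) also overlapped that of Matn1-high cells (23.7 to 38.8). Against MG2, Matn1-high cells were 5.28-fold and 6.72-fold higher. The summed level of the 5 cartilage markers was highest in MG1 among the labelled clusters, at 1233 and 351 CPM. Matn1 itself reached at most 87.3 and 11.6 CPM in a labelled cluster of the E15.5 and E17.5 libraries, against 3738 and 3358 CPM in Matn1-high cells. The part of cartilage RNA in the MG1 level was not tested.

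**Figure D4:**
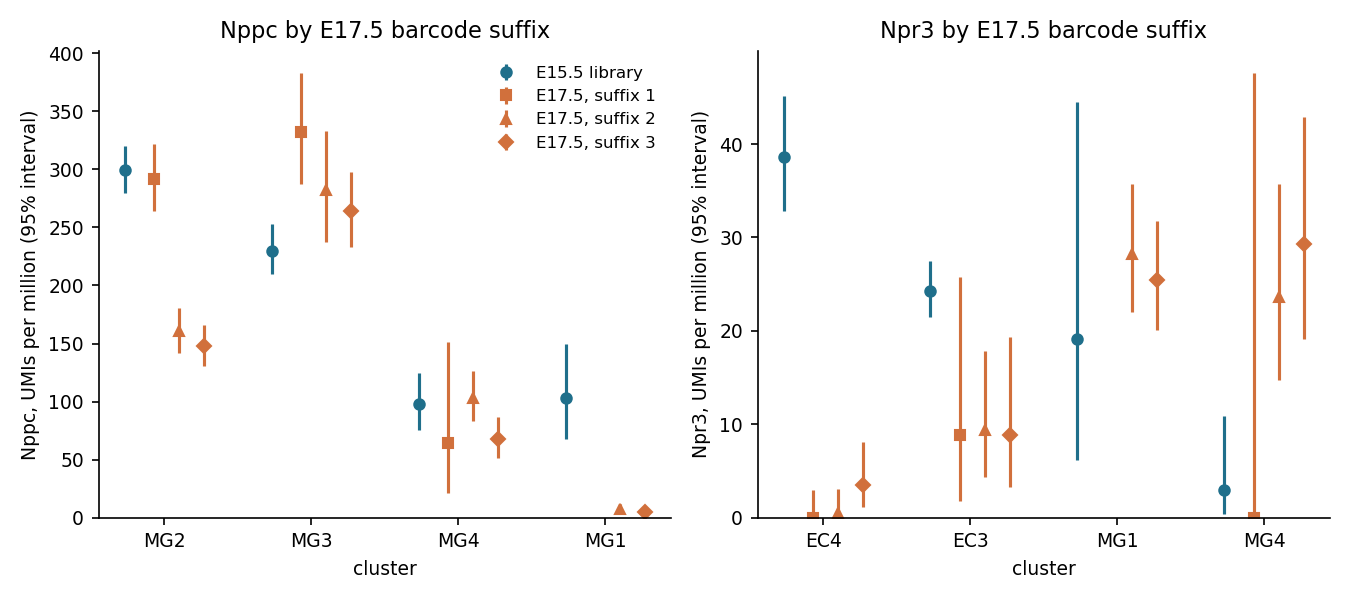
Nppc (left) and Npr3 (right) in CPM in 4 clusters each, with circles for the E15.5 library, and squares, triangles and diamonds for E17.5 barcodes of suffix 1, 2 and 3, and bars for exact Poisson 95% intervals. Nppc in MG2 is 292 in suffix 1, near the E15.5 level, and 161 and 148 in the other suffixes, whereas Npr3 in EC4 is at or below 3.48 in every suffix.

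Across the 15 clusters, the level pattern of Nppc was most alike in the libraries by Pearson's r, at 0.88 on log2(CPM + 1), followed by Npr1 at 0.67, Npr2 at 0.64 and Npr3 at 0.15. By Spearman's rho the order was not the same, with 0.74 for both Nppc and Npr2, 0.51 for Npr1 and 0.19 for Npr3. These are descriptions over clusters that share a library and its depth. By the rule of at least 2-fold above the remaining labelled cells in the same cluster of both libraries, Nppc passed in MG2, MG3 and MG4 and Npr1 passed in EC2, which makes 2 of the 4 genes. Of all 12150 genes tested, 20.7% passed in at least 1 of the 15 clusters, and nothing is read from the comparison, since Nppc was chosen for its cluster levels.

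The wider pathway was described by a list of 28 genes for ligands, peptide processing, cyclic GMP synthesis, its kinases, its breakdown and kinase substrates. Pde2a was not matched in both gene lists, and 20 of the other 27 genes had enough UMIs to be tested, the 4 genes above included. Of these, 10 passed the 2-fold rule in a cluster, beside the 20.7% of all genes, and the list was made with earlier results of these data known. EC2, the cluster with the most Npr1, held 3 others that passed. Prkg2, which encodes a cyclic GMP-dependent kinase known from growth plate cartilage, was 12.6 and 27 CPM there, 2.63-fold and 25.7-fold the level of the remaining labelled cells. Pde5a, a phosphodiesterase that breaks down cyclic GMP, was 27.6 and 17.9 CPM, 2.28-fold and 3.19-fold that level. Its level was 18.3 and 16.7 CPM in MG3 and 19.6 and 15.8 CPM in MG4, close to that of EC2 at E17.5. Pde1a, a calcium-dependent phosphodiesterase, was 7.49 and 6.92 CPM, 2.06-fold and 6.3-fold that level. It was higher in OG4 at E15.5, at 11.1 CPM, and in MG4 at E17.5, at 9.48 CPM. Prkg2 was also high in Matn1-high cells, at 34.7 and 19.1 CPM, and low in MG2, at 2.36 and 1.03 CPM. In EC1 it was 14 and 7.12 CPM.

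In the clusters with the most Nppc, the kinase gene present was Prkg1. It lay between 13.2 and 20.9 CPM in MG2 and MG3 of both libraries, and its highest level at E17.5 was in LIG, at 30.1 CPM. In MG1 Prkg1 was 7.64 CPM at E15.5 from 2 UMIs and 25.4 CPM at E17.5. Pde9a, which encodes a phosphodiesterase specific for cyclic GMP, passed the 2-fold rule in MG3, at 5.09 and 3.92 CPM, and in MG4, at 4.51 and 4.21 CPM, from 3 to 10 UMIs in each. Furin, which encodes the protease that cuts the Nppc precursor, was 34 and 33.7 CPM in MG2, 2-fold the level of the remaining labelled cells at E15.5 but 1.49-fold in the later library. At E17.5 EC1, MG3 and MG1 were slightly above MG2, at 36.4, 34.8 and 34.3 CPM, and Matn1-high cells held 39.6 CPM. Mme encodes neprilysin, which degrades the peptides. It was 91.6 and 53.5 CPM in MG2, 2.01-fold and 1.88-fold that of the remaining labelled cells, and 22.8 and 4.53 CPM in EC2. OG3 held 107 and 49 CPM of Mme.

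The remaining genes that passed were Gucy1a1, a subunit of the soluble cyclase, in EC4 (20 and 9.57 CPM), Pde3a in LIG (43.1 and 42.6 CPM), Kcnma1, a potassium channel gene, in OG4 (36.5 and 35.1 CPM), and Ostn in OG1, PO1 and LIG. EC4 was not the cluster with the highest Gucy1a1 in either library. At E15.5 Gucy1a1 was higher in OG4 and OG3, at 36.5 and 29.4 CPM, against 5.91 and 2.56 CPM there at E17.5. At E17.5 it was higher in MG4, at 33.7 CPM, against 1.5 CPM there at E15.5.

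**Figure D5:**
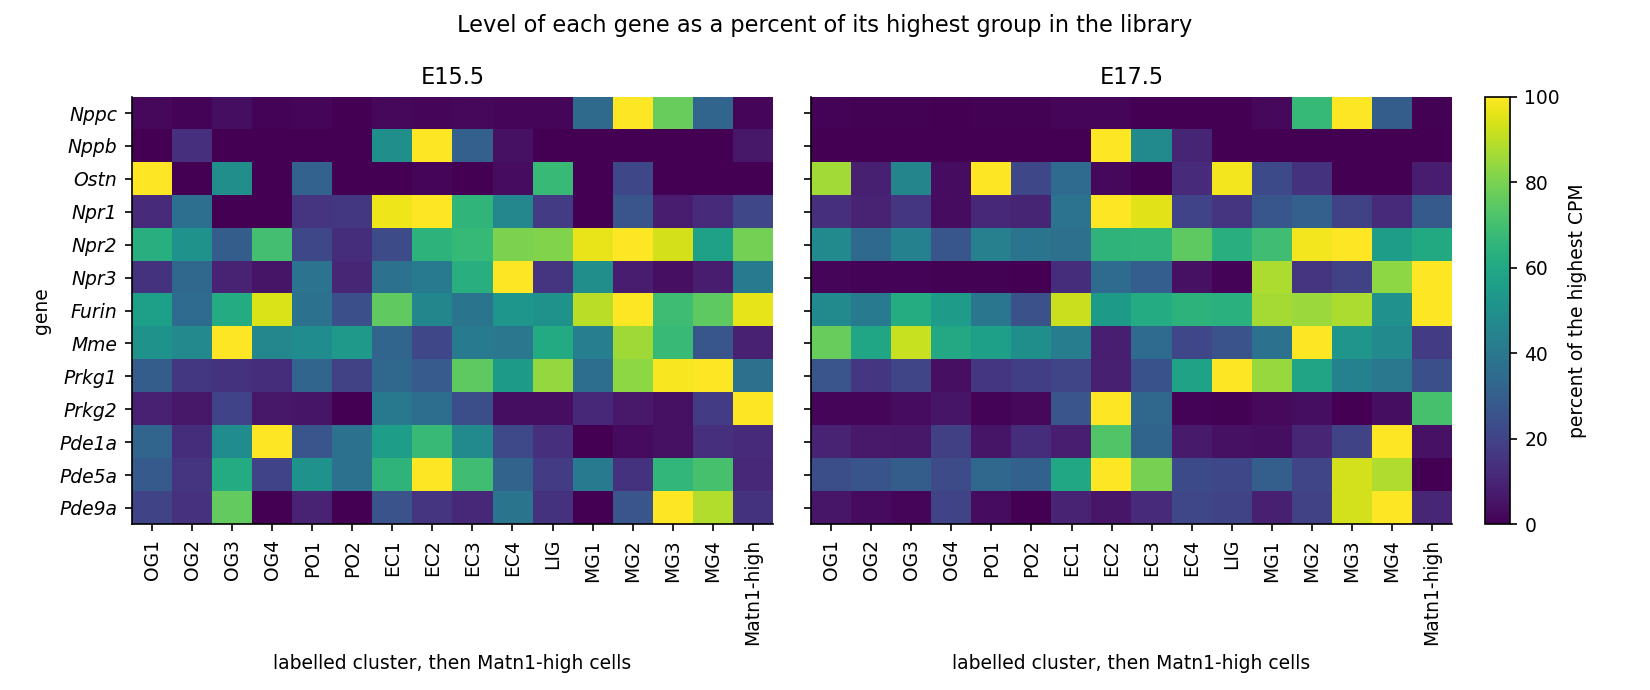
Levels of 13 ligand, receptor and pathway genes (rows) in the 15 labelled clusters and Matn1-high cells (columns) of the E15.5 library (left) and the E17.5 library (right), each as a percent of the gene's highest group in that library (colour scale). Nppc is bright in MG2 and MG3, Nppb in EC2, and Npr1 in EC2, beside EC1 at E15.5 and EC3 at E17.5. Pde5a is bright in EC2 and, at E17.5, also in MG3 and MG4. Prkg2 is bright in Matn1-high cells of both libraries and in EC2 at E17.5. Npr3 is bright in EC4 at E15.5 but in MG1, MG4 and Matn1-high cells at E17.5.

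Among the genes whose levels over the 15 clusters were most like those of Nppc, of 9300 compared by the lower of both libraries' r, were Itih2 (E15.5 0.93, E17.5 0.96), Fxyd5 (0.93 and 0.93), Slc23a2 (0.97 and 0.92) and Slc52a3 (0.94 and 0.91). Fxyd5, which encodes a regulator of the sodium pump, was 936 and 1440 CPM in MG3 and 495 and 489 CPM in MG2. Slc23a2, a vitamin C transporter gene, was 88 and 91.6 CPM in MG3 and 67 and 43.2 CPM in MG2. Both were also high in MG4 at E17.5, at 1185 and 63.7 CPM, where Nppc was 84.8 CPM. Ranked by Spearman's rho, none of these genes remained among the 5 most alike.

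For Npr1 the most alike were Gfpt2, Rab32, Opcml, Scara5 and Plekho2, with r between 0.86 and 0.92 in both libraries. Scara5, which encodes a ferritin receptor, was 325 and 330 CPM in EC2, and 3 of these 5 genes remained when ranked by rho. The likeness was weaker for Npr2, led by Sec62 (0.82 and 0.83), and for Npr3, led by Zfp62 (0.77 and 0.87). For these receptors, 0 and 1 of the 5 most alike genes remained by rho.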

How the data were processed

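Single cells of coronal sutures were deposited as 1 sample per stage, and that of E17.5 joins 3 separately prepared batches. The authors deposited UMI counts per gene and barcode as they left Cell Ranger, aligned to mm10 (GRCm38) and without normalization, and a table of cluster labels made with Seurat 3.2.0. Version 3.1.0 stands in the file header for E15.5, which is not the version in the study's methods. Labelled cells were taken as given. Unlabelled barcodes had at least 1000 UMIs and 1000 genes, with no more than 7.5% of UMIs from mitochondrial genes or 3% from Hbb and Hba genes, and were classed by the marker list of which they held the most, if at least 10 UMIs. Such classes are ranges and need not match the study's cell types.

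Counts were pooled per group and set as CPM, with exact Poisson, conditional binomial and Clopper-Pearson intervals. Doublets were not removed from the values reported, and an alternative left out cells whose Scrublet score reached the 94th percentile (scanpy 1.11.5, expected rate 0.06). Other software was scipy 1.17.1, numpy 2.4.6, matplotlib 3.10.9 and pandas 2.3.3 under Python 3.11.15. The computation was tested on simulated data.

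The genes, lists and rules were chosen with earlier results of these data known. Genes named are the 4 members, listed pathway genes that were 2-fold above the remaining labelled cells in both libraries, Ostn, Prkg1, Prkg2, Furin and Mme, the 5 genes most alike each member (1 of which is not reported here), and genes said to be chosen after their values were seen. Likeness used genes of at least 10 CPM in a cluster of each library. Alternatives were other filters, normalizations, thinning depths, limits and single barcode suffixes.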

Additional observations from a re-analysis of the deposited data

Results flagged for a closer look

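In 5 cases an effect within the cells went in opposite directions in the E15.5 and E17.5 libraries, and none of these differences was tested, because each stage is 1 sample. Nppc in MG1 was 3.1-fold the level of the remaining labelled cells at E15.5, whereas the ratio was 0.296 in the E17.5 library. Npr3 in EC4 stood 2.87-fold above them in the earlier library and at a ratio of 0.327 in the later one. Npr3 in MG4 turned the other way, from a ratio of 0.191 to one of 7.21, although the first rests on 2 UMIs. The ratio of Nppc in MG2 to MG3 was 1.3 and then 0.67, and that of Npr3 in EC4 to EC3 was 1.59 and then 0.146.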

How the results depend on the processing

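Of 162 recomputed values of the comparisons, 135 stayed within the counting interval of the reported value or within 1.5 times a count, 26 moved beyond it and 1 reversed. The cause was not tested in any of them. Nppc in MG3 against the remaining labelled cells (20.6 at E17.5) was 15.1 with cells thinned to 3000 UMIs, 15.2 as the mean of single-cell CPM and 11.2, 24.8 and 25.4 in suffixes 1, 2 and 3. In MG2 at E17.5 (18.4) it was 14.9 thinned, 15.46 as the mean of single-cell CPM, 13.6 as mean UMIs per cell and 14.5 in suffix 3. Npr1 in EC2 at E15.5 (2.5) was 1.85 thinned, and Npr3 in MG1 at E17.5 (10.6) was 8.11 thinned and 8.46 as the mean of single-cell CPM. Between the libraries, the ratio of Nppc in MG2 (0.644) was 0.977, 0.537 and 0.494 in the suffixes, and in MG3 (1.25) it was 1.44 in suffix 1. For Npr3 in EC4 (0.0346) the ratio was 0 in suffix 1 and 0.0901 in suffix 3, and in MG4 (8.4) it was 0 in suffix 1, a reversal that rests on 7 cells with 0 UMIs. The MG2 to MG3 ratio of Nppc, whose alternatives were chosen after seeing the data, was 1.12 at E15.5 (1.3) and 0.554 at E17.5 (0.67) as mean UMIs per cell, and 0.879, 0.57 and 0.56 in the suffixes. At a limit of 1.5-fold, 19 pathway genes in place of 10 and 4 of the receptor and ligand genes in place of 2 passed, and at 3-fold 1 of the latter did. Of all 12150 genes tested, 44% passed in a cluster at 1.5-fold and 8.69% at 3-fold, and nothing is read from the comparison. Of the shares of cells, 26 of 36 moved when cells were thinned to 1000 or 5000 UMIs, while all 24 recomputed levels of Matn1-high cells stayed. Levels of other unlabelled cells moved in 2 of 40 cases and the sets of most alike genes in 6 of 12.

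No paired analysis of the stages was possible because each stage is 1 sample. Clusters with cells in every E17.5 barcode suffix could have been paired within the suffixes. Such a test was not run, since Nppc was chosen for its cluster levels and the clusters were made from the same cells. The results thus come from no test. Intervals cover counting error only. The spread between embryos is not known, and that between the E17.5 batches is seen only through the barcode suffixes. MG1 had 28 cells and MG4 64 cells at E15.5, and levels that rest on fewer than 10 UMIs are imprecise. UMIs of the 3′ end do not tell transcript forms apart.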
